A study of Mus musculus with 9 samples.

Results

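Interferon-stimulated genes are the genes that cells switch on when they sense an interferon. Here 38 of them were followed in epididymal adipose tissue while obese mice lost weight. The members are antiviral effectors, sensors of foreign nucleic acid, transcription factors of the response, GTPases and genes of antigen presentation, and they were taken by gene symbol from a table of reads counted on 56748 annotated genes. All 38 were found, and all were among the 18510 tested genes, those that reached 0.5 CPM (counts scaled to 1000000 reads per library) in any library.

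The tissue came from wild-type (WT) male C57BL/6J mice that all started a high-fat diet (HFD) at 8 weeks of age and ate it for 8 weeks. Tissue was taken at that point (Pre), or after another 1 week (WL1) or 2 weeks (WL2) of standard diet (SD), during which weight is lost. Each phase has 3 RNA-sequencing libraries with 16434450 to 22729072 counted reads. The comparisons ask whether the members' RNA changed by the first and by the second week of weight loss, and between those weeks. The labels do not say how many mice each library holds, so the p-values measure the spread between these libraries, which may be technical in part.

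Type I interferons signal through the receptor chains IFNAR1 and IFNAR2 and the kinases JAK1 and TYK2, which activate a transcription factor complex that contains STAT2 and IRF9 and binds the interferon-stimulated response element (ISRE). Interferon-γ acts mainly through another element, the gamma-activated site (GAS). In adipose tissue, adipocytes, vascular cells and macrophages can all respond, and macrophages and lymphocytes gather there in obesity.

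The response element can be read in the members' own promoters. The stretches shown are the upstream parts of the promoters of *Bst2*, *Gbp2*, *Ifit3* and *Isg15*, the most highly expressed of the described members with such an element. They are taken from RefSeq on GRCm38.p6 and written in the direction of the gene, and capitals mark the ISRE letters, GAAA, any 2 bases and GAAA again, or on the other strand TTTC, any 2 bases and TTTC again. They lie at chr8:71537543-71537642 on the minus strand (*Bst2*), chr3:142620564-142620662 on the plus strand (*Gbp2*), chr19:34583333-34583456 on the plus strand (*Ifit3*) and chr4:156200835-156200936 on the minus strand (*Isg15*).
Bst2: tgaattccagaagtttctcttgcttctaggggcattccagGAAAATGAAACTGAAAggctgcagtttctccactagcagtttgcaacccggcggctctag
Gbp2: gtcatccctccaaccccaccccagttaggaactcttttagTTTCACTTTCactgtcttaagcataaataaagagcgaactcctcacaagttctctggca
Ifit3: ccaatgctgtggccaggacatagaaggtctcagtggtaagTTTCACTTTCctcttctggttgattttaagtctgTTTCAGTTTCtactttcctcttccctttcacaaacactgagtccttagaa
Isg15: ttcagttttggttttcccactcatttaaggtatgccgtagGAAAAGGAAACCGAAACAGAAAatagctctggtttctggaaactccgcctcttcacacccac

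*Isg15* holds 3 overlapping copies that begin 78 bases before the annotated start, and *Bst2* holds 2 overlapping copies that begin 130 bases before it. *Ifit3* has 2 separate copies on the other strand, the farther 156 bases before the start, and *Gbp2* has 1 at 59 bases. Bases just after the annotated start matched a transcript of the gene for *Gbp2*, *Ifit3* and *Isg15* but not for *Bst2*. The *Bst2* distance therefore rests on the annotated start alone. Over all member promoters such bases matched in 26 of 33. A promoter, reaching from 250 bases before to 50 after the start, was found for 29 of the 38 members, and 16 of them (55.2%) held these ISRE letters on either strand, against 3.99% of the 27025 genes with a promoter in that table. The GAS letters TTCNNNGAA, which are the same on both strands, were in 8 of the 29 (27.6%), against 9.55% of all genes. A match describes letters and not a bound site. Members with and without the ISRE letters had near-equal median log2 fold changes, 0.20 in 16 and 0.16 in 13 at WL1 against Pre, and 0.16 and 0.13 at WL2 against Pre.

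The label of the tissue was checked against cell type markers before the members were described. All 8 adipocyte markers (*Adipoq*, *Plin1* and others) were present in every library, with a summed level of 21910 to 38270 CPM. One library stood apart. In Pre replicate 2 all 10 T cell markers were at their highest, with a sum of 71.1 CPM against 8.67 to 15.4 in the other 8 libraries, and all 8 B cell markers were highest there too, at 2735 CPM. The B cell sum was 1127 to 2735 CPM at Pre and 161 to 291 CPM in the WL1 and WL2 libraries, so every library after the diet change was lower. Macrophage markers (12 genes, none at 0 in any library) summed to 1649 to 3054 CPM at Pre, 3014 to 5638 at WL1 and 1846 to 3268 at WL2. What these cells contributed to the members' levels was not tested, and in bulk tissue fewer cells of a type and less RNA per cell cannot be told apart.

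The interferon-stimulated genes were expressed at all phases and moved little. Mean FPKM, which scales reads by gene length and so allows genes to be compared, ran from 0.349 for *Oas3* to 77.0 for *Bst2*, with a median of 5.74 over the members against 3.03 over all tested genes. The highest and lowest phase means lay within 1.5-fold of each other for 32 members and within 2-fold for 37, the exception being *Oas3*. These limits were not counted over all tested genes, so they describe the members without setting them apart from other genes. Summed over the 38 members, the level was 1059, 1006 and 1025 CPM in the Pre libraries, 1185, 1117 and 1016 CPM at WL1, and 1049, 1205 and 1048 CPM at WL2. The phases overlap in this sum.

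**Figure D1:**
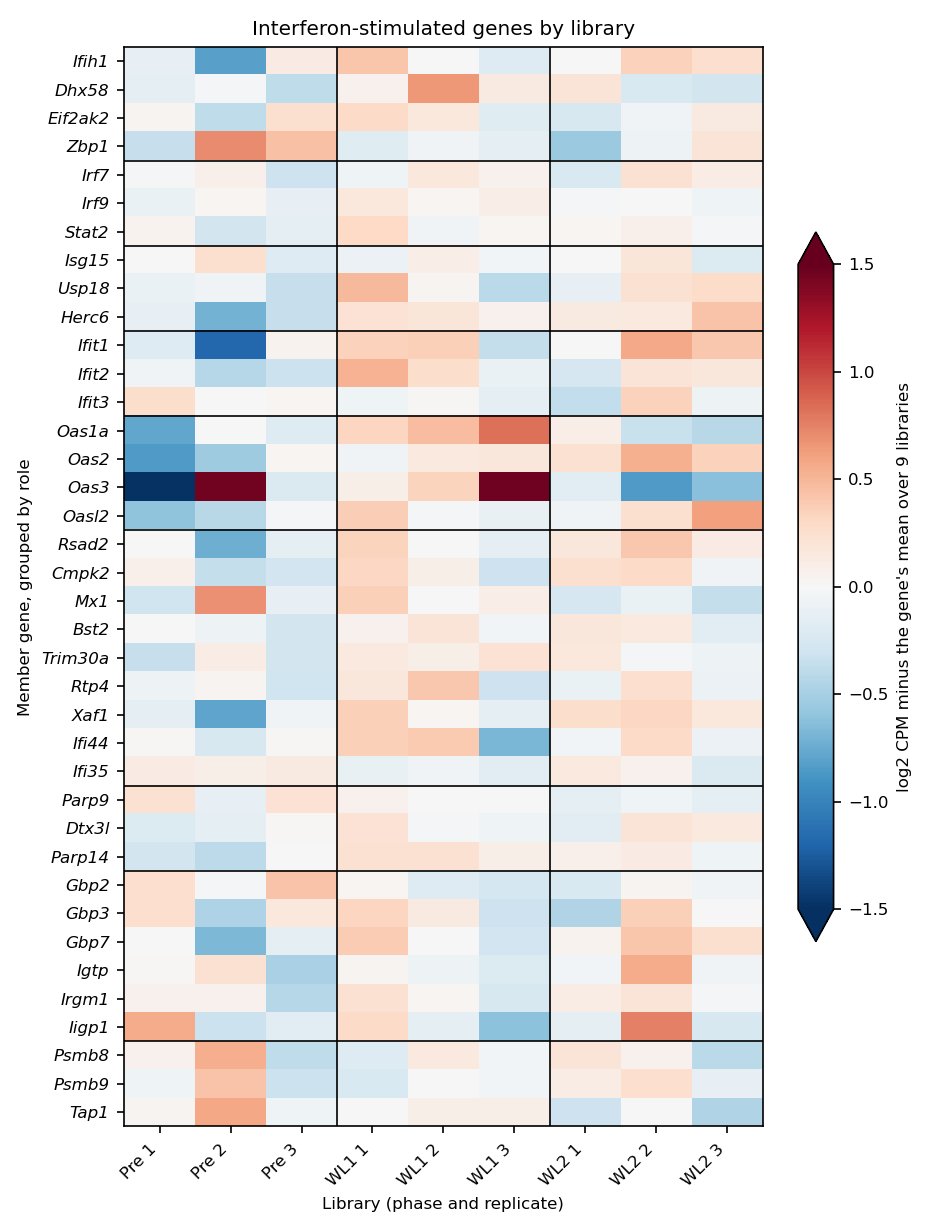
Log2 CPM of each member in each of the 9 libraries, as the difference from the member's own mean over all libraries (colour), with members grouped by role and phases separated by vertical lines. *Oas3* shows the widest colour range, and the Pre 2 column is blue for *Ifit1*, *Ifih1* and *Xaf1* but red for *Psmb8*, *Psmb9* and *Tap1*.

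At WL1 against Pre, 0 of 38 members passed an edgeR adjusted p of 0.05, where 7.29% of all tested genes did (2.6% higher and 4.69% lower). At an unadjusted p under 0.05 there were 8 (*Dhx58*, *Herc6*, *Ifit2*, *Oas1a*, *Oas2*, *Trim30a* and *Parp14* with higher and *Gbp2* with lower estimates), or 21.1% against 24.3% of all genes. By direction these were 18.4% of the members against 11.6% of all genes higher, and 2.63% against 12.7% lower. DESeq2 called 2, *Oas1a* and *Parp14* (14.4% of all genes), and limma on log2(FPKM + 1) called 0 (7.41%).

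At WL2 against Pre, *Herc6* and *Oas2* rose and no member fell. These are 5.26% of the members, against 10.0% of all tested genes called in either direction, 3.35% higher and 6.66% lower. At an unadjusted p under 0.05 there were 9 members, or 23.7% against 26.0%, with 18.4% against 11.5% higher and 5.26% against 14.4% lower. Between WL2 and WL1, 0 of 38 passed (3.68% of all genes, 1.31% higher and 2.37% lower). *Oas1a* alone had an unadjusted p under 0.05, with a lower estimate (2.63% of the members against 12.8% of all genes lower; of all genes 8.56% were higher and 21.4% in either direction); DESeq2 called it alone (11.9%), and limma called 0 (3.14%). A test of any difference among the phases called 1 member, *Oas1a*, or 2.63% against 13.0% of all genes, and 6 had an unadjusted p under 0.05 (31.3% of all genes). The comparisons share libraries, those with WL1 and WL2 the same Pre libraries, so they are not separate evidence.

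The median log2 fold change over the members was 0.18 at WL1 against Pre, 0.13 at WL2 against Pre and 0.01 at WL2 against WL1, beside medians over all tested genes of 0.02, 0.01 and close to 0. Estimates lay above 0 for 27, 26 and 20 of the 38, against 52.0%, 50.9% and 49.7% of all genes. The intervals show how far a change could reach. For 34 members the 95% interval at WL1 against Pre stayed within 2-fold in either direction, against 57.6% of all genes, and *Zbp1*, *Ifit1*, *Oas1a* and *Oas3* were the exceptions. At WL2 against Pre this held for 32 members (56.1% of all genes). A limit of 1.5-fold was kept by 14 and 17 members (31.6% and 30.8% of all genes), so changes up to that size were not resolved for most members.

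**Figure D2:**
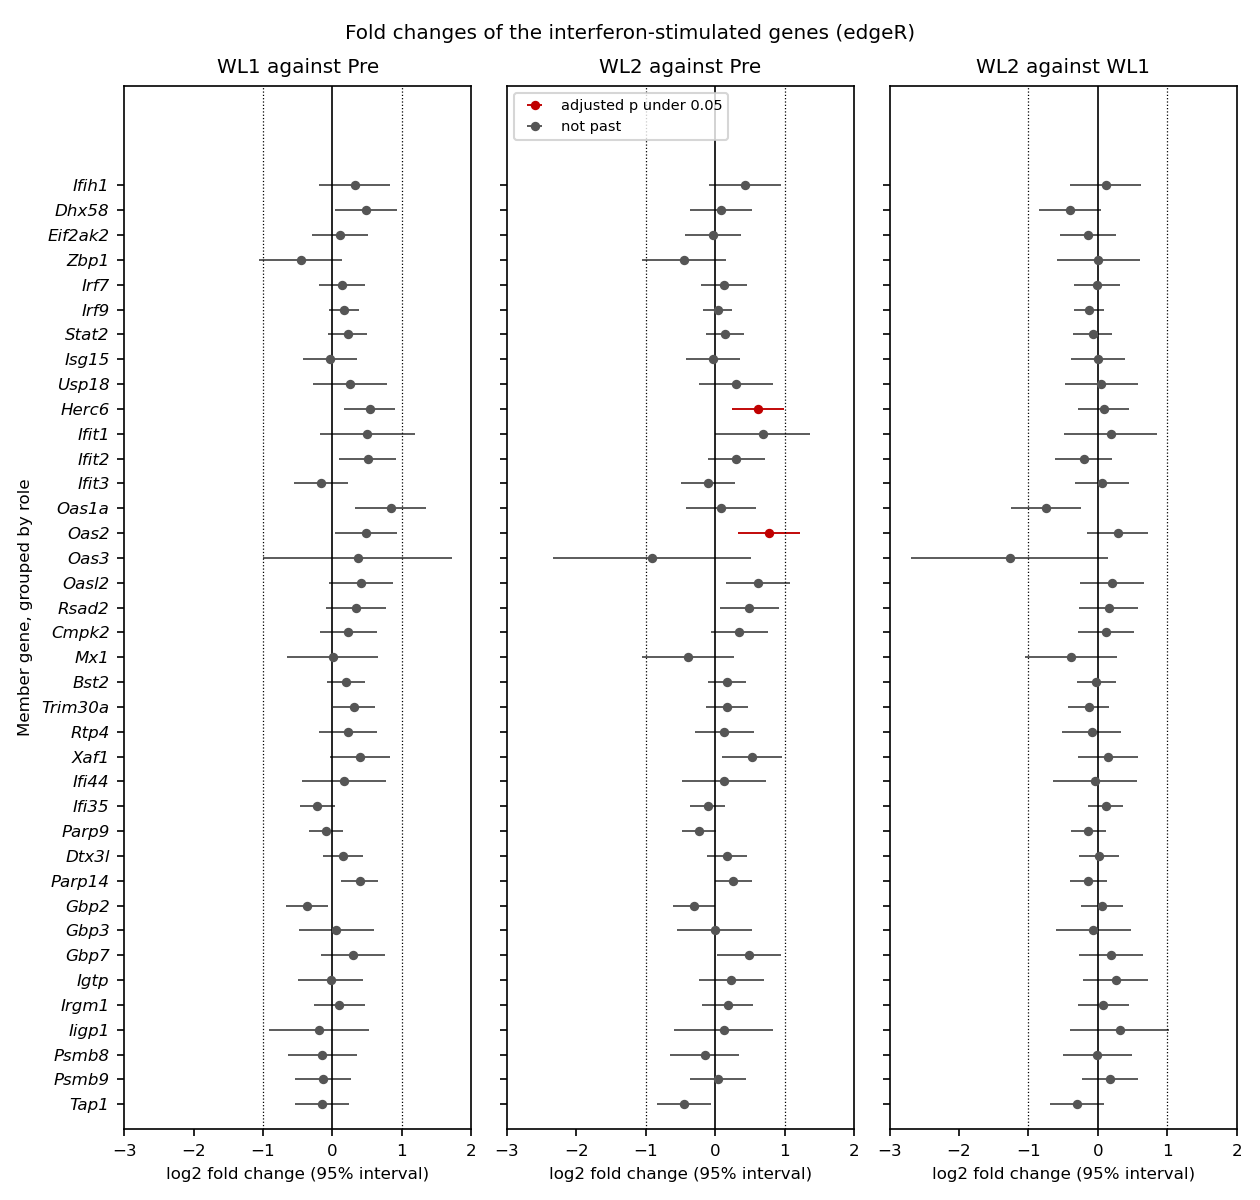
Log2 fold changes of the 38 members in the 3 pairwise comparisons (points) with 95% intervals from edgeR (lines), the solid line marking no change and the dotted lines 2-fold. *Herc6* and *Oas2* at WL2 against Pre, in red, are the members past an adjusted p of 0.05, and most intervals lie between the dotted lines.

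Some members separated the phases without passing the test. All 3 WL1 libraries lay above all 3 Pre libraries for 5 members (*Dhx58*, *Irf9*, *Herc6*, *Oas1a* and *Parp14*), or 13.2% against 14.7% of all genes, and below them for *Ifi35* (2.63% against 13.9%). At WL2 against Pre, 5 members lay wholly above (*Herc6*, *Oas2*, *Rsad2*, *Xaf1* and *Gbp7*; background 15.1%) and 0 wholly below (15.8%). Between the weeks, *Oas2* was wholly higher at WL2 (13.9%), and *Irf9*, *Oas1a*, *Oas3*, *Mx1* and *Parp9* were wholly lower (16.4%).

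The ISG15 system held one of the genes that rose. ISG15 is a ubiquitin-like protein that is attached to other proteins, HERC6 is its main ligase in mice, and USP18 removes it and restrains the type I receptor. *Herc6* (ENSMUSG00000029798; chromosome 6, 57557985 to 57641617, plus strand, in the coordinates of the authors' table) was at 11.0, 7.32 and 9.41 CPM in the Pre libraries, 13.9, 13.6 and 12.5 at WL1 and 13.2, 13.3 and 16.1 at WL2. Every WL library was above every Pre library. The edgeR estimate was 1.54-fold at WL2 (log2 0.62, SE 0.17, 95% interval 0.25 to 0.99, adjusted p = 0.0426), and 1.45-fold at WL1 (log2 0.53, SE 0.17, adjusted p = 0.0815). The call at WL2 is close to its threshold, since of the 9 fits that leave out 1 library it passed only without Pre replicate 1, and without Pre replicate 2 the log2 change was 0.48 (adjusted p = 0.0876; 0.0137 to 0.151 over all alternatives). With the replicate number as a block the adjusted p was 0.0663.

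*Isg15* itself was at 7.49, 8.81 and 6.55 CPM at Pre, 7.05, 8.03 and 7.25 at WL1 and 7.44, 8.49 and 6.48 at WL2. The phases overlap, with log2 changes of -0.03 in both weeks (95% intervals -0.42 to 0.36 and -0.41 to 0.36); the sign turned positive when libraries were scaled by their plain totals. *Usp18* ranged from 4.16 to 7.70 CPM over the 9 libraries with overlapping phases. Over these 3 genes the median log2 change was 0.25 at WL1 and 0.30 at WL2, and *Herc6* was the one past the threshold.

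Among the oligoadenylate synthetases, which make the short oligoadenylates that activate the nuclease RNase L, *Oas2* was highest at WL2 and *Oas1a* at WL1. *Oas2* (ENSMUSG00000032690; chromosome 5, 120868398 to 120887918, minus strand) was at 10.7, 13.3 and 19.6 CPM at Pre, 18.5, 21.2 and 21.6 at WL1 and 22.5, 27.7 and 24.4 at WL2. The WL2 libraries lay above all others, and Pre replicate 3 lay within the range of WL1. The rise at WL2 was 1.71-fold (log2 0.77, SE 0.20, 95% interval 0.33 to 1.22, edgeR adjusted p = 0.0372), and the WL1 estimate was 0.49 (SE 0.20, adjusted p = 0.169). The call at WL2 was kept without Pre replicate 3, WL1 replicate 1 or WL1 replicate 3 and lost without any 1 of the other 6 libraries; without Pre replicate 2 the log2 change was 0.71 (adjusted p = 0.0902; 0.00554 to 0.136 over all alternatives).

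*Oas1a* (ENSMUSG00000052776; chromosome 5, 121034319 to 121045584, minus strand) was at 6.42, 11.0 and 9.64 CPM at Pre, 13.8, 15.2 and 19.5 at WL1 and 11.8, 8.72 and 8.22 at WL2. Here the first week stood out, with every WL1 library above every other. The estimates were log2 0.84 at WL1 against Pre (SE 0.23, adjusted p = 0.0527) and -0.75 at WL2 against WL1 (SE 0.23, adjusted p = 0.0918), neither past the threshold, while the joint test of any difference gave an edgeR adjusted p of 0.0484. At WL2 against Pre its log2 change was 0.09. The joint call was lost without any 1 of Pre replicate 1, Pre replicate 3, the WL1 replicates 1, 2 and 3 or the WL2 replicates 2 and 3.

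*Oas3*, the member with the fewest reads (13 in its lowest library), was at 0.766, 5.84 and 1.84 CPM at Pre, 2.28, 2.71 and 5.90 at WL1 and 1.92, 1.19 and 1.39 at WL2. Pre replicate 2 and WL1 replicate 3 were high and set the phase means, so the interval at WL2 against Pre was wide (log2 -0.91, 95% interval -2.33 to 0.52), and without Pre replicate 2 the estimate was 0.18, against 1.44 at WL1 (0.36 with it). *Oasl2*, a relative in the family, ranged from 19.0 CPM in Pre replicate 1 to 44.3 CPM in WL2 replicate 3. The median over the 4 synthetases was 0.45 at WL1 and 0.35 at WL2 against Pre, above the member medians, with 4 and 3 estimates above 0. *Oas2*, *Oas3* and *Oas1a* are neighbours on chromosome 5, and *Oas1a* has near-identical copies such as *Oas1g* with which reads may be shared.

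**Figure D3:**
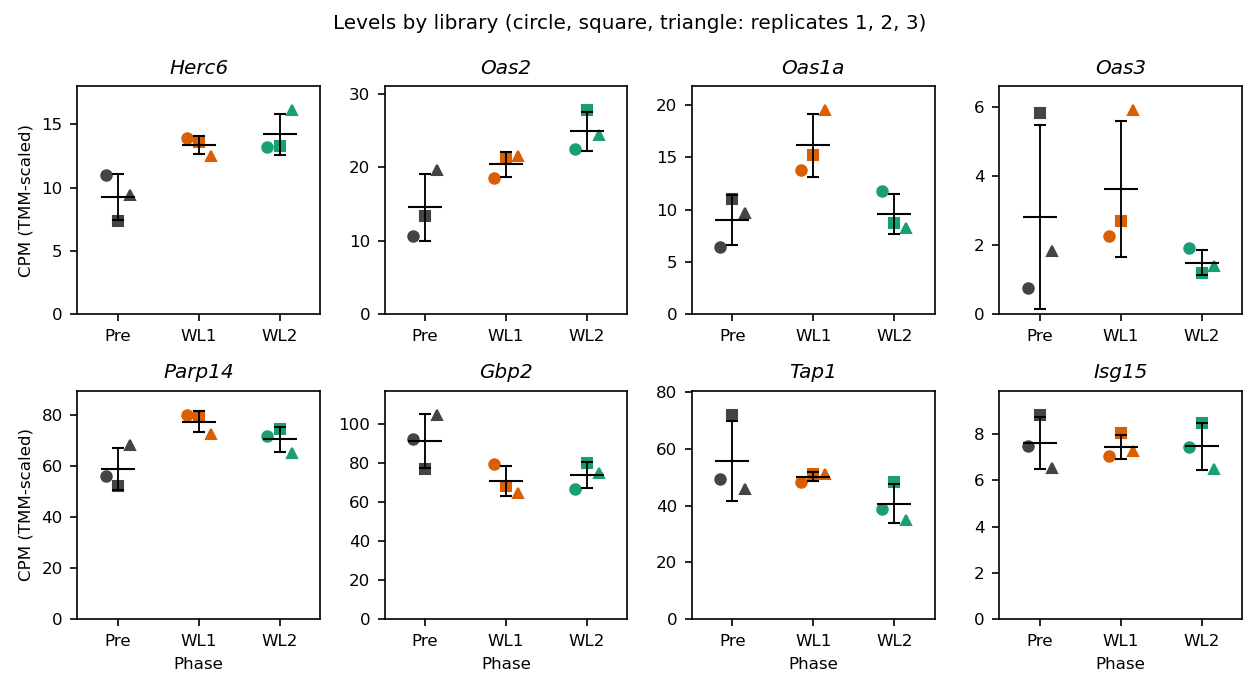
CPM of 8 members in each library (circle, square and triangle for replicates 1, 2 and 3) with the mean and SD of each phase (horizontal and vertical black lines, n = 3). *Herc6* and *Oas2* sit lowest at Pre, *Oas1a* is highest at WL1, *Gbp2* and *Tap1* have their highest library at Pre, and *Isg15* is level.

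Of the nucleic acid sensors, *Eif2ak2* (the kinase PKR, which halts translation on double-stranded RNA) had the highest mean of the group at 4.01 FPKM. It was at 22.3, 16.6 and 25.6 CPM at Pre, 26.4, 24.2 and 19.1 at WL1 and 18.4, 20.9 and 23.9 at WL2, with overlapping phases (log2 0.11 at WL1 against Pre, 95% interval -0.30 to 0.52). *Dhx58* encodes LGP2, a regulator of the RNA helicase sensors. Its levels were 10.3, 11.2 and 8.72 CPM at Pre, 11.9, 17.9 and 12.5 at WL1 and 13.0, 9.74 and 9.38 at WL2. The WL1 libraries were all above Pre, by log2 0.49 (SE 0.20, edgeR adjusted p = 0.171), or 0.28 without WL1 replicate 2, the highest. *Ifih1*, which encodes the long double-stranded RNA sensor MDA5, ranged from 16.1 to 38.1 CPM, and *Zbp1*, a sensor of Z-form nucleic acid, from 5.09 to 12.3 CPM. In Pre replicate 2, the library that stood apart, *Ifih1* was at its lowest and *Zbp1* at its highest.

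None of the transcription factors of the response passed the test. *Stat2* was at 49.0, 38.9 and 42.9 CPM at Pre, 58.3, 45.5 and 48.4 at WL1 and 48.3, 49.7 and 46.5 at WL2, and the log2 changes of 0.22 (SE 0.13) and 0.14 (SE 0.13) did not pass. *Irf9*, its partner, ranged from 35.5 to 43.4 CPM and *Irf7*, which amplifies interferon production, from 20.3 to 29.6 CPM. *Irf9* overlaps *Rnf31*, and *Irf7* overlaps *Phrf1* on the other strand; no source used here gives the strand setting of the counting, so reads may be shared.

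IFIT proteins bind foreign RNA by its 5′ end. *Ifit3*, at 10.9 FPKM the highest of them, was at 24.0, 20.1 and 20.4 CPM at Pre, 19.2, 20.4 and 18.1 at WL1 and 15.5, 25.5 and 19.1 at WL2, without separation (log2 -0.16 and -0.10, SE 0.17 for both, the second above 0 with plain library totals). *Ifit1* gave 8.08, 4.08 and 9.55 CPM at Pre, 11.7, 11.8 and 7.19 at WL1 and 9.14, 13.6 and 12.2 at WL2. Its estimates were larger but spread widely, at log2 0.50 (SE 0.31) and 0.69 (SE 0.31, edgeR adjusted p = 0.191), and both moved with Pre replicate 2, the lowest library, to 0.22 and 0.40 when it was left out. *Ifit2* ranged from 16.4 to 31.6 CPM. The 3 genes lie together on chromosome 19, where *Ifit3* has a close copy, *Ifit3b*.

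Among the other antiviral effectors, *Bst2* (tetherin, which holds budding virus at the cell surface) was the member with the highest level. It was at 73.7, 70.1 and 61.2 CPM at Pre, 77.1, 84.7 and 72.1 at WL1 and 83.0, 81.8 and 66.0 at WL2, and the log2 changes of 0.19 and 0.17 (SE 0.12 for both) did not pass. *Xaf1*, whose protein binds the apoptosis inhibitor XIAP, was at 18.9, 12.0 and 20.0 CPM at Pre, 26.7, 21.2 and 18.9 at WL1 and 24.8, 25.6 and 23.2 at WL2. WL2 lay wholly above Pre, by log2 0.53 (SE 0.20, edgeR adjusted p = 0.115), which became 0.34 without Pre replicate 2.

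None of the remaining effectors passed the test. *Rsad2* (viperin, which makes a chain-terminating nucleotide) ranged from 15.7 to 34.5 CPM and its chromosome 12 neighbour *Cmpk2*, a nucleotide kinase, from 14.6 to 23.3 CPM. Over the 9 effectors the median was 0.22 at WL1 and 0.17 at WL2, with 8 and 7 estimates above 0 and none past the threshold. Values ran from 26.6 to 39.3 CPM for *Trim30a*, 12.4 to 20.2 for *Rtp4*, 3.43 to 7.25 for *Ifi44*, 28.1 to 36.2 for *Ifi35* and 2.08 to 4.30 for *Mx1*. The *Mx1* allele of C57BL/6 mice is known to carry a deletion and to make no working protein.

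PARP9 and DTX3L act as a pair that ubiquitinates histones and viral proteins, and PARP14 is a related mono-ADP-ribosyltransferase. *Parp14* was at 56.3, 52.0 and 68.2 CPM at Pre, 80.0, 79.8 and 72.6 at WL1 and 71.8, 74.6 and 65.1 at WL2, with all WL1 libraries above Pre (log2 0.40, SE 0.12, edgeR adjusted p = 0.0739; 0.26 at WL2, SE 0.12). *Parp9* gave 76.6, 60.0 and 75.9 CPM at Pre, 68.3, 65.0 and 65.6 at WL1 and 59.3, 62.7 and 59.1 at WL2. Its estimates were on the other side of 0, at -0.10 and -0.23 (SE 0.11 for both; adjusted p = 0.222 at WL2), the first of them above 0 with libraries scaled by their plain totals. Without Pre replicate 2 the WL2 estimate was -0.34 and passed (adjusted p = 0.0497), so that it became the only member called at WL2 against Pre. *Dtx3l* ranged from 38.3 to 51.4 CPM. The neighbours *Parp9* and *Dtx3l* overlap on opposite strands of chromosome 16, and reads may be shared.

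The interferon-induced GTPases coat the vacuoles of intracellular pathogens, and many of them respond strongly to interferon-γ. *Gbp2*, at 29.2 FPKM the highest, was at 92.4, 76.8 and 104 CPM at Pre, 79.5, 68.1 and 64.5 at WL1 and 66.5, 80.1 and 74.9 at WL2. The WL means were lower, but Pre replicate 2 lay within their range (log2 -0.37 and -0.30, SE 0.14 for both, edgeR adjusted p = 0.135 and 0.192). *Gbp7*, on the same stretch of chromosome 3, was at 26.8, 16.7 and 24.4 CPM at Pre, 34.6, 26.6 and 21.9 at WL1 and 27.7, 35.7 and 31.6 at WL2. Its estimates were above 0, at 0.29 and 0.48 (SE 0.21 for both, adjusted p = 0.17 at WL2), the second becoming 0.31 without Pre replicate 2. *Gbp3*, *Igtp*, *Irgm1* and *Iigp1* overlapped across phases, at 21 to 37.1, 14.2 to 29.2, 21.8 to 34.5 and 22.1 to 57.5 CPM. The median over the 6 GTPases was 0.01 at WL1 and 0.15 at WL2, with 3 and 4 estimates above 0. *Igtp* overlaps *Irgm2*, and GTPases of this family are alike enough that reads may be shared.

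The peptide supply of MHC class I comprises the immunoproteasome subunits *Psmb8* and *Psmb9* and the peptide transporter chain *Tap1*, side by side on chromosome 17. *Psmb8* was at 44.7, 62.1 and 32.9 CPM at Pre, 37.4, 47.3 and 41.6 at WL1 and 48.9, 44.6 and 32.2 at WL2. *Tap1* was at 49.3, 71.8 and 45.8 CPM at Pre, 48.2, 51.1 and 51.1 at WL1 and 38.6, 48.3 and 35.0 at WL2. *Psmb9* ranged from 24.0 to 40.2 CPM. It overlaps *Tap1* on the other strand, and reads may be shared. All 3 were highest in Pre replicate 2, the library with the high T cell markers, and the sum of the 3 was 174.1 CPM there against 94.7 to 128.5 CPM in the others.

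The median over the 3 was -0.14 at WL1 and -0.15 at WL2, the only role with medians below 0 in both weeks. The estimates at WL1 against Pre were -0.14 for *Psmb8* (SE 0.22) and -0.15 for *Tap1* (SE 0.18), and without Pre replicate 2 they were 0.12 and 0.07. *Tap1* at WL2 against Pre was -0.45 (SE 0.18, edgeR adjusted p = 0.135), and -0.23 without that library. Pre replicate 2 was also the highest library for *Zbp1*, *Isg15* and *Mx1*. It was the lowest of all for 12 members, *Ifih1*, *Eif2ak2*, *Stat2*, *Herc6*, *Ifit1*, *Ifit2*, *Rsad2*, *Cmpk2*, *Xaf1*, *Parp14*, *Gbp3* and *Gbp7*. The members therefore differed among themselves in this library, and leaving it out moved the median over the members from 0.18 to 0.15 at WL1 and from 0.13 to 0.18 at WL2. Other libraries moved it further, to 0.09 at WL1 without WL1 replicate 1, and at WL2 to 0.07 without WL2 replicate 2 and 0.08 without Pre replicate 3 (0.0913 to 0.228 and 0.0714 to 0.188 over all 9).

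**Figure D4:**
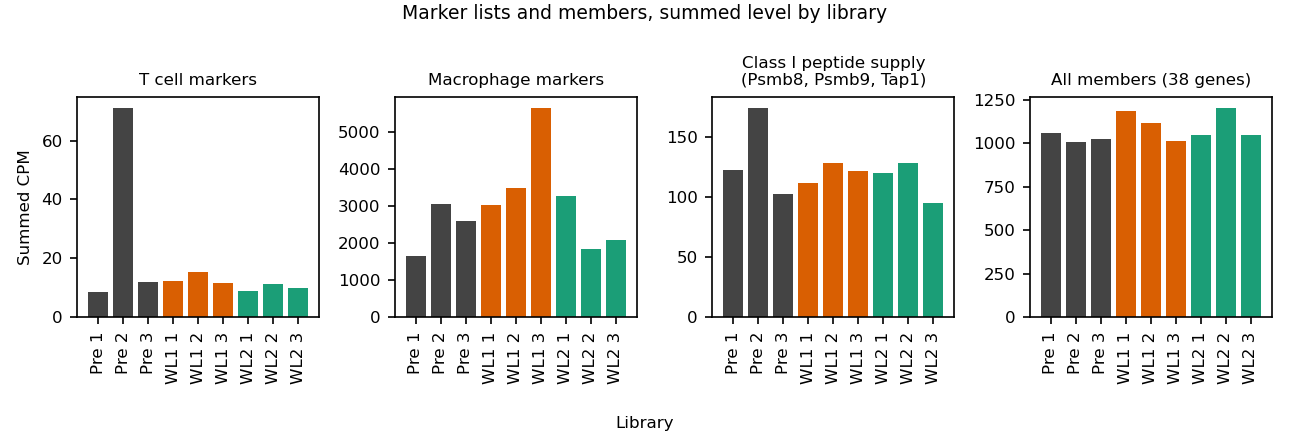
Summed CPM in each library of the T cell markers (10 genes), the macrophage markers (12 genes), *Psmb8*, *Psmb9* and *Tap1*, and all 38 members, with bars coloured by phase. T cell markers and the 3 peptide supply genes peak in Pre 2, macrophage markers peak in WL1 3, and the sum of all members stays between 1006 and 1205 CPM.

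The rest of the pathway was followed through lists of 152 genes, of which 129 were tested. Hardly any interferon was read. The 20 genes of type I and III interferons had 7 reads in all 9 libraries together, *Ifnb1* none, and *Ifng* had 3 reads. With 168334845 counts in all libraries together, 3 counts, the most that a count of 0 allows, correspond to 0.0178 CPM; this covers counting error only, and says nothing of the protein or of brief expression.

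Of the pathway genes, 8 of 129 passed at WL1 against Pre (7 higher, 1 lower; 6.2% against 7.29% of all genes), 15 at WL2 against Pre (6 higher, 9 lower; 11.6% against 10.0%), and 1 at WL2 against WL1 (lower; 0.775% against 3.68%). None of the 6 receptor chains passed in a pairwise comparison by edgeR. *Irf1*, a factor that drives many of the genes induced by interferon-γ, was at 59.7, 49.3 and 42.8 CPM at Pre, 58.9, 49.9 and 46.2 at WL1 and 61.2, 69.6 and 58.1 at WL2, with a change of 0.32 at WL2 (SE 0.15, adjusted p = 0.2).

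Sensors, regulators and inhibitors upstream of the members gave these calls. *Ikbke*, a kinase that activates IRF3 and IRF7, rose at WL1 from 20.0, 21.7 and 30.2 CPM to 41.5, 41.2 and 58.6 CPM (log2 0.97, SE 0.22, edgeR adjusted p = 0.0271), with 32.6, 20.3 and 24.2 CPM at WL2. *Mavs*, the mitochondrial adaptor of the RNA sensors, fell at WL2 from 58.5, 67.1 and 60.8 CPM to 46.7, 49.5 and 47.7 CPM (log2 -0.37, SE 0.10, adjusted p = 0.0394). Of the other sensors and adaptors, none passed in a pairwise comparison. The *Mavs* call was lost when libraries were scaled by their plain totals (-0.22, adjusted p = 0.163) and with the replicate block (0.0608).

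*Irf8*, a factor of macrophages and dendritic cells, was at 50.6, 93.7 and 64.9 CPM at Pre, 50.7, 63.9 and 94.4 at WL1 and 41.0, 26.2 and 21 at WL2. It was the largest fall among the called pathway genes, by 1.25 on the log2 scale at WL2 against Pre (SE 0.31, edgeR adjusted p = 0.0301). The B cell marker sum was lower at WL2 than at Pre in every library, and its part in this fall was not tested. *Pias1*, an inhibitor of cytokine signalling, rose in both weeks, from 35.1, 35.9 and 35.5 CPM to 50.4, 43.7 and 48.4 at WL1 and 49.1, 44.7 and 46.9 at WL2 (log2 0.42 and 0.40, SE 0.10 for both, adjusted p = 0.0303 and 0.0277). *Nlrx1*, a mitochondrial protein that dampens MAVS signalling, fell at WL2 from 35.7, 34.7 and 22.7 CPM to 17.2, 21.5 and 19.5 CPM (log2 -0.68, SE 0.17, adjusted p = 0.0331; 0.0714 with plain totals). With the replicate block the calls of *Irf8* (edgeR adjusted p = 0.0731) and of *Pias1* in both weeks (0.0613 and 0.0544) were lost.

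Among 57 other interferon-stimulated effectors, 5 rose and 1 fell at WL1, and 5 rose and 4 fell at WL2, where the shares of all tested genes were 2.6% higher and 4.69% lower at WL1 and 3.35% and 6.66% at WL2. *Slfn8*, a member of the Schlafen family, rose in both weeks from 5.30, 5.67 and 7.98 CPM to 11.3, 13.6 and 13.9 at WL1 and 9.41, 11.8 and 11.7 at WL2 (log2 1.03 and 0.79, SE 0.19 for both, edgeR adjusted p = 0.0123 and 0.0271). *Oasl1*, which restrains the translation of *Irf7*, rose at WL1 from 2.71, 4.63 and 3.74 CPM to 8.46, 7.39 and 10.1 CPM (log2 1.22, SE 0.30, adjusted p = 0.0367; 0.0793 with the replicate block) and was at 6.40, 3.00 and 3.88 CPM at WL2. *Ifi207*, of the family of interferon-inducible DNA sensors, rose at WL1 from 21.5, 20.5 and 52.8 CPM to 65.1, 72.5 and 121 CPM (log2 1.44, SE 0.36, adjusted p = 0.0382).

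The other calls of this list, named because they are few and after their values were seen, were *Trim25* and *Sp110* (higher) and *Ifi27* (lower) at WL1, and *Ifitm1*, *Nmi*, *Parp12* and *Uba7* (higher) and *Ifi27*, *Lgals3bp*, *Tdrd7* and *Ogfr* (lower) at WL2. In class I antigen presentation 2 of 16 genes fell at WL2 (6.66% of all genes), the peptide loading chaperone *Tapbp* from 355, 398 and 367 CPM to 271, 283 and 282 CPM (log2 -0.42, SE 0.10, edgeR adjusted p = 0.0229) and the proteasome activator *Psme2* from 104, 94.0 and 85.2 CPM to 71.3, 54.2 and 58.4 CPM (log2 -0.62, SE 0.16, adjusted p = 0.0367). With plain library totals both calls were lost, at log2 -0.27 for *Tapbp* (edgeR adjusted p = 0.0981) and -0.47 for *Psme2* (0.0712), and the block gave 0.0512 for *Tapbp*. None of 15 other interferon-induced GTPases and of 4 tested interferon-induced chemokines passed in a pairwise comparison. In the fits that leave out 1 of the 9 libraries, *Slfn8* at WL1 passed in 8 (not without WL1 replicate 3), *Tapbp* in 6, *Ikbke*, *Irf8*, *Psme2* and *Slfn8* at WL2 in 5, *Pias1* in 4 in either week, *Oasl1* and *Nlrx1* in 3, *Ifi207* in 2 and *Mavs* in 1. Of the calls only named, *Trim25* and *Ifi27* at WL1 passed in all 9, with log2 changes of 0.823 to 0.973 and -0.956 to -0.801. *Sp110* at WL1 passed in 2. At WL2, *Lgals3bp* passed in 7, *Ifi27* in 5, *Nmi* and *Parp12* in 3, *Uba7* in 2, and *Ifitm1*, *Tdrd7* and *Ogfr* in 1.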

How the data were processed

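Total RNA from epididymal fat was sequenced in 9 libraries, 3 per phase by their labels. For each gene the authors deposited unnormalized read counts and FPKM. The submitters' processing notes name HISAT2, HISAT, TopHat2, CASAVA, GRCm38 and mm10 without their roles; neither the counting program nor its strand setting is given in the sources used here. Start and end equalled those of GENCODE M21 (GRCm38) for 1472 of 52073 shared genes, so printed gene positions are those of the authors' table and carry no build. The totals implied by the FPKM were 0.995 to 1.12 times the summed counts. Columns that matched no sample numbered 0.

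The 38 members, their roles, the pathway and marker lists, the tests and the rule for described genes were chosen with earlier results of these data known. The quasi-likelihood test of edgeR 4.0.16 (R 4.3.3) was applied to the counts in 1 model of all 9 libraries without covariates, with TMM factors of 0.933 to 1.07, for the 18510 genes reaching 0.5 CPM in any library. P-values were two-sided and adjusted by Benjamini-Hochberg over all 18510 genes, with a threshold of 0.05; standard errors and 95% intervals came from the quasi-likelihood F statistic. CPM are scaled by TMM. DESeq2 1.42.0 and limma 3.58.1 were alternatives, beside other filters and factors, the replicate number as a block, fits of the compared phases alone, and leaving out each library. The steps were tested on simulated data. Within each phase no libraries were identical, and pairs exceeded counting noise (chi-square divided by its degrees of freedom, 9.54 to 51.8).

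Described with values were members past the threshold in any comparison, and of each role the member with the highest mean FPKM and that with the largest fold change; of the pathway lists *Ifng*, *Ifnb1*, *Irf1* and up to 3 genes past the threshold per list. Promoter stretches came from up to 4 described members holding the ISRE letters, by mean FPKM. Other genes were named after their values were seen, and 1 gene that the rule names is not reported here.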

Additional observations from a re-analysis of the deposited data

Results flagged for a closer look

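*Lgals3bp*, which encodes a secreted glycoprotein that interferons raise, was lower in the second week of weight loss than in the first. It was at 390, 435 and 404 CPM at Pre, 451, 451 and 501 at WL1 and 295, 300 and 274 at WL2, so every WL1 library lay above and every WL2 library below Pre. The change at WL2 against WL1 was -0.691 on the log2 scale (SE 0.10, edgeR adjusted p = 0.00945), with a change at WL2 against Pre of -0.50 (adjusted p = 0.0128). Of the 129 tested pathway genes it was the only one past the threshold between the weeks, and of the 9 fits that leave out 1 library it passed in 7, not without WL2 replicate 2 or 3, where the estimates were -0.716 and -0.652.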

How the results depend on the processing

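With 3 libraries per phase the calls on the members sat near the threshold and depended on the processing; the cause of each shift was not tested. At WL1 against Pre the count of 0 members became 1 without a filter, 2 with DESeq2 and 3 with plain library totals, and 0 to 2 when 1 library was left out. At WL2 against Pre the count of 2 became 1 with the replicate block or limma on log2(FPKM + 1), 0 with limma on log2(FPKM + 0.1) or with the compared phases alone, and 0 to 1 when 1 library was left out. At WL2 against WL1 the count of 0 became 1 without a filter and with DESeq2, and stayed at 0 when any 1 library was left out. For any difference, the count of 1 became 2 without a filter, 3 with DESeq2, 4 with plain library totals, 0 with RLE or upper quartile factors, the replicate block and both limma settings, and 0 to 2 when 1 library was left out. The replicate block took away the calls of *Herc6* at WL2 and of *Oas1a* for any difference, and in the pathway lists those of *Mavs*, *Irf8*, *Tapbp*, *Pias1* in both weeks and *Oasl1*. Deviations of same-numbered libraries from their phase means had 9 correlations from -0.277 to 0.107, 1 of them over 0.1. Pairs with different numbers ran from -0.197 to 0.239. With 3 libraries per phase these correlations cannot decide whether the numbers pair the samples.

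Plain library totals moved the median of all genes to 0.12 at WL1 and 0.16 at WL2 and the medians over the members from 0.18 to 0.281 at WL1, or 0.161 relative to all genes, and from 0.13 to 0.285 at WL2, or 0.127 relative to all genes. They also ended the calls of *Mavs*, *Nlrx1*, *Tapbp* and *Psme2* at WL2. They turned the split of all calls from 482 higher and 868 lower to 1002 and 642 at WL1, and from 620 and 1233 to 1495 and 836 at WL2. Signs that turned with them were *Isg15* (0.0674 at WL1, 0.125 at WL2), *Ifit3* at WL2 (0.0531) and *Parp9* at WL1 (0.00382). When 1 library was left out, the estimates ranged across 0 at WL1 for *Eif2ak2* (-0.0458 to 0.257), *Isg15* (-0.13 to 0.0868), *Oas3* (-0.174 to 1.44), *Psmb8* (-0.343 to 0.12) and *Tap1* (-0.273 to 0.0744), and at WL2 for *Isg15* (-0.128 to 0.0921), *Ifit3* (-0.313 to 0.0537), *Oas1a* (-0.106 to 0.249) and *Oas3* (-1.35 to 0.176).

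Counts over all genes differed by over 1.5 times from the 1350 at WL1 against Pre with DESeq2 (2344), limma on log2(FPKM + 0.1) (781) and the replicate block (844), from the 681 between the weeks with DESeq2 (1935), no filter (1668), the compared phases alone (1051), limma on log2(FPKM + 0.1) (231) and the block (330), and from the 2414 for any difference with DESeq2 (4104), limma on log2(FPKM + 0.1) (1464) and the block (1560). Leaving out 1 library gave 512 to 1500, 37 to 1351 and 1062 to 2475 in these comparisons and 743 to 1688 at WL2 against Pre, where 1853 genes were called. The depth gives each member at least 13 reads in its lowest library, so counting error weighs most on *Oas3*.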
